A study of Drosophila melanogaster with 10 samples.

Results

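The genes examined here make up the retinal determination network of the fly together with its early eye progenitor factors: ey, toy, eya, so, dac, Optix, tsh, tio and hth, 9 genes chosen by name. All probe sets of the array whose annotation names exactly one of these genes were taken. This gave 10 probe sets for 8 genes, of 13647 probe sets that name a single gene. The gene toy has 3 of them, the other 7 genes have 1 each, and hth, for which no probe set carried that symbol, is not analysed here.

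Expression was profiled in eye-antenna discs of larvae of the fly Drosophila melanogaster, the epithelial sacs from which the adult eye, antenna and head capsule form, 96 h after egg laying (early L3 stage). In all 5 genotypes the driver ey-Gal4, which uses a control region of ey, switched on UAS transgenes in the disc. The control carried UAS-GFP (GFP), and the others carried the hairpin UAS-COX7a-RNAi, line v106661 (COX7a RNAi), UAS-Delta with UAS-GFP (Delta), UAS-Delta with UAS-COX7a-RNAi (Delta with COX7a RNAi), or UAS-Notch[intra2] (Notch intra), an intracellular form of the Notch receptor that signals without a ligand. Delta is such a ligand, and COX7a is a subunit of mitochondrial cytochrome c oxidase. Each genotype had 2 biological replicates of 20 to 30 pooled discs, the number depending on disc size. Whether replicates came from separate crosses is not stated, so p-values measure the spread between these samples. The Notch intra genotype and both hairpin genotypes carry no UAS-GFP, 1 hairpin line stands for the loss of COX7a, and Gal4 was not measured.

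The network is a set of transcription factors and cofactors that turn part of the disc into eye. The Pax proteins encoded by ey and toy act at its top and switch on so and eya, whose products bind each other and regulate genes as a complex. They act with dac, a nuclear cofactor, and with Optix, another gene of the sine oculis homeobox family, which is named after so. The zinc-finger paralogues tsh and tio and the homeodomain gene hth are used in the proliferating progenitors ahead of the morphogenetic furrow, the front along which photoreceptors begin to differentiate. Notch signalling at the dorsoventral midline of the eye field drives its growth and has been linked to ey expression and to the Pax gene eyg.

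Values are log2 expression per probe set, with 2 arrays per genotype, and a gene is said to have risen or fallen only at a Benjamini-Hochberg adjusted p under 0.05 from limma, fitted over all 10 arrays and 8702 genes. For each gene the probe set with the highest mean represents it, and all 10 probe sets of the network exceeded the floor for low values, 4.66, throughout. The eye markers ey, toy, eya and so and the antennal markers Dll and ct were above the floor on every array, and the antennal marker ss on every array but the Notch intra pair. Across genes, the correlation (Pearson's r) was 0.995 to 0.997 between replicates and 0.981 to 0.995 between genotypes. The transgenes showed as labelled: COX7A stood at 13.17 to 13.41 without the hairpin, at 10.50 and 10.54 with COX7a RNAi and at 10.88 and 11.20 with Delta and COX7a RNAi, and Delta stood at 12.72 to 13.26 with UAS-Delta against 11.10 to 11.46 without it. COX7A was higher by 0.52 ± 0.09 (SE) with Delta and COX7a RNAi than with COX7a RNAi alone (limma adjusted p = 0.0422), so the hairpin genotypes differed in what remained of the targeted mRNA.

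The Pax genes ey and toy were highest with Notch intra. For ey the arrays read 11.43 and 11.46 in GFP, 11.51 and 11.35 with COX7a RNAi, 11.38 and 11.42 with Delta, 11.29 and 11.19 with Delta and COX7a RNAi, and 11.76 and 11.87 with Notch intra. The Notch intra arrays lay above all 8 others, the Delta with COX7a RNAi arrays lay below all others, and COX7a RNAi spanned the values of GFP and Delta. The main toy probe set read 12.27 and 12.23 in GFP, 12.09 and 12.17 with COX7a RNAi, 12.07 and 12.10 with Delta, 12.07 and 12.02 with both transgenes, and 12.70 and 12.59 with Notch intra. Again the Notch intra arrays stood apart, above GFP, and the other 3 genotypes lay below GFP without overlap.

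The homeobox genes so and Optix ordered the genotypes differently. The gene so, whose product contacts DNA in the complex with Eya, read 10.78 and 10.81 in GFP, 10.63 and 10.65 with COX7a RNAi, 10.57 and 10.63 with Delta, 10.45 on both arrays with Delta and COX7a RNAi, and 10.90 and 10.81 with Notch intra. It was thus lower in the 3 genotypes with Delta or the hairpin than in GFP, lowest where both were present, and overlapped with GFP in Notch intra. Optix, which is active just ahead of the furrow, read 11.86 and 11.87 in GFP, 11.93 and 11.77 with COX7a RNAi, 11.54 and 11.46 with Delta, 11.43 and 11.27 with Delta and COX7a RNAi, and 11.09 and 11.14 with Notch intra. Its arrays descended from GFP through Delta and the combination to Notch intra with no overlap between those 4 genotypes, and COX7a RNAi overlapped with GFP.

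The cofactor genes eya and dac varied least. The gene eya, which encodes a transcriptional coactivator with phosphatase activity, spanned 12.17 to 12.53 over all arrays, and dac spanned 12.62 to 12.88. The Notch intra arrays gave the lowest eya values, 12.29 and 12.17, and the lowest dac values, 12.64 and 12.62. The SD over all arrays was 0.10 log2 units for eya and 0.09 for dac, below the median of 0.11 over all genes tested, while that of the other 6 genes ran from 0.15 (so) to 0.31 (Optix). The highest dac value, 12.88, was that of COX7a RNAi replicate 2, whose replicate 1 read 12.65. On the same 2 arrays the photoreceptor gene sens read 8.27 and 7.22. Replicates 1 and 2 of Delta with COX7a RNAi differed in sens as well, at 7.145 and 8.067.

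The paralogues tsh and tio did not move alike. The gene tsh, a zinc-finger gene of the progenitor zone, read 10.50 and 10.53 in GFP, 10.55 and 10.67 with COX7a RNAi, 10.43 and 10.40 with Delta, 10.36 and 10.28 with both, and 10.901 and 11.005 with Notch intra. The Notch intra arrays were above all others and the Delta genotypes below GFP. The gene tio had the values nearest the floor, at 6.27 and 6.36 in GFP, 6.19 and 6.02 with COX7a RNAi, 6.24 and 6.26 with Delta, 5.92 and 5.68 with Delta and COX7a RNAi, and 6.27 and 6.07 with Notch intra. Only the combination stood apart from every other genotype, on the low side. In the gene table of Release 6 plus ISO1 MT, tsh and tio lie on chromosome arm 2L with 21 annotated genes between them, and ey and toy on chromosome 4 with 19 between them.

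**Figure D1:**
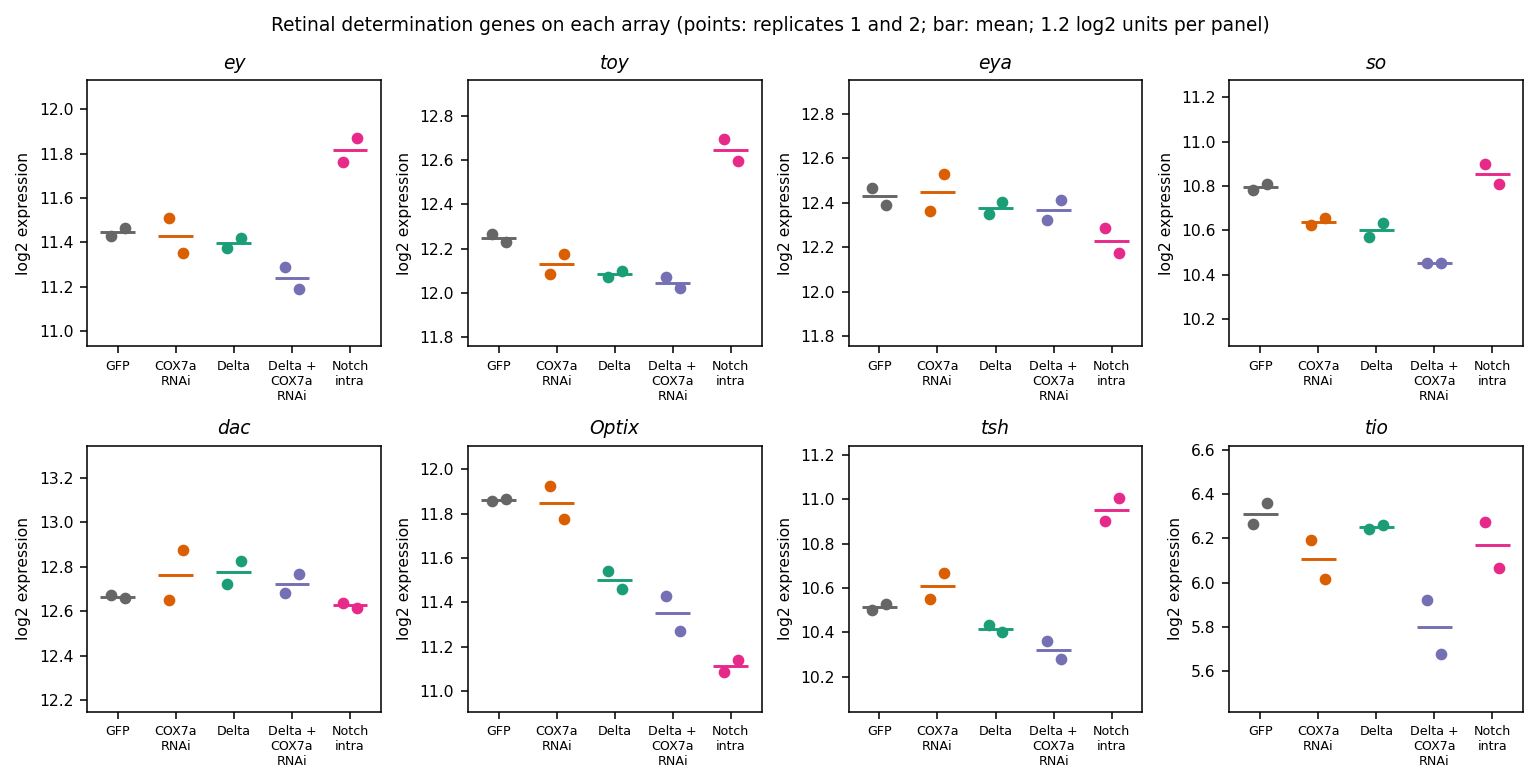
Log2 expression of the 8 measured retinal determination genes on each array, with points for replicates 1 and 2 and a bar for their mean, on panels of equal height but their own level. The Notch intra arrays lie above the others for ey, toy and tsh and below the others for Optix. The Delta with COX7a RNAi arrays are lowest for ey, so, tsh and tio, and by a small margin for toy.

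Notch intra against GFP asks what activation of the Notch pathway does without its ligand. The genes that rose were tsh, by 0.44 ± 0.06 (SE; 1.36-fold; adjusted p = 0.00158), toy, by 0.40 ± 0.05 (1.32-fold; adjusted p = 0.00103) and ey, by 0.37 ± 0.06 (1.29-fold; adjusted p = 0.00639). Optix fell by 0.75 ± 0.07 (1.68-fold lower; adjusted p = 0.00024), the largest change of any of the 8 genes in any comparison with GFP. The values of eya (-0.20 ± 0.07, adjusted p = 0.0866), tio (-0.14 ± 0.12), so (0.06 ± 0.05) and dac (-0.04 ± 0.07) did not pass, and their 95% intervals were -0.35 to -0.05, -0.41 to 0.13, -0.05 to 0.16 and -0.20 to 0.12. Thus 4 of 8 genes were called, 3 higher and 1 lower, where 13.1% of all genes tested were called, 6.03% higher and 7.11% lower. The median over the 8 genes was 0.01, against 0.03 over all genes. The ey call did not hold without Notch intra replicate 2 or GFP replicate 1 (adjusted p up to 0.0552), and eya was called lower without COX7a RNAi replicate 1 or 2 (adjusted p = 0.0449 and 0.0448).

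The 3 toy probe sets gave the same direction with Notch intra. The main one, 1633512_at, gave 0.40 ± 0.05, 1633094_a_at gave 0.44 ± 0.10 and 1623314_at gave 0.29 ± 0.08, all called in the fit of all single-gene probe sets (adjusted p = 0.00105, 0.0284 and 0.0473). They parted in the comparison of Delta with COX7a RNAi against GFP, where they gave -0.20 ± 0.05, -0.23 ± 0.10 and 0.12 ± 0.08, of which the first was called (adjusted p = 0.0413). The direction for toy there therefore rests on the probe set used. The probe sets also parted for Delta against GFP, where the 3 gave -0.16 ± 0.05, -0.03 ± 0.10 and 0.07 ± 0.08, and COX7a RNAi against GFP, where they gave -0.12 ± 0.05, -0.09 ± 0.10 and 0.05 ± 0.08, none of them called.

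**Figure D2:**
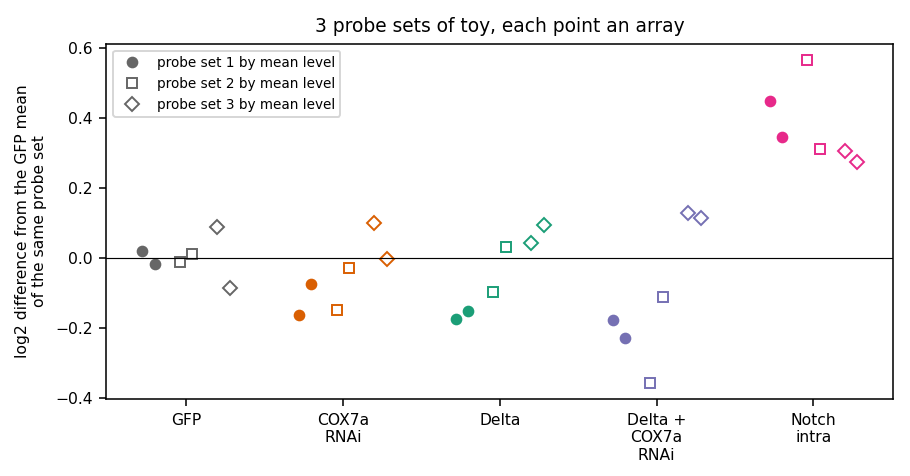
Log2 difference of each array from the GFP mean of the same probe set, for the 3 probe sets of toy. All Notch intra points lie above 0, whereas in Delta with COX7a RNAi the first 2 probe sets lie below 0 and the last one above it.

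Other genes of the eye and head moved with Notch intra as well. Of 3 measured genes in a list of other eye-specification genes, eyg, a Pax gene for eye growth, rose by 2.69 ± 0.08 (adjusted p = 7.36e-07), while dan (0.12 ± 0.14) and danr (0.19 ± 0.24), a pair of nuclear factor genes used in both eye and antenna, did not pass. Among 7 measured genes that have been proposed as targets of the network, shf, which encodes a secreted factor for Hedgehog movement, rose by 1.06 ± 0.11, sens, a photoreceptor gene, fell by 1.60 ± 0.37, and dpp, a morphogen gene of the furrow and margin, fell by 0.73 ± 0.10. Of 10 furrow and photoreceptor genes 4 fell, with svp at -2.08 ± 0.34, sens and the EGF receptor antagonist gene aos (-1.13 ± 0.12) first, and 1 rose. The sens call did not survive the loss of any GFP or Notch intra array (adjusted p up to 0.142), and the weakest of the 4, Egfr (-0.28 ± 0.07), was also lost without either COX7a RNAi array (up to 0.222). Of 2 measured genes in the list of hth partners and progenitor growth, yki, the growth coactivator of the Hippo pathway, was called at 0.16 ± 0.04, and that call was lost without any of 8 arrays, all but the COX7a RNAi pair (adjusted p up to 0.215).

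Genes of the neighbouring fields fell in the same discs. Antennal genes were lower in 4 of 11 cases, with the antennal identity gene ss under the floor on both Notch intra arrays and at least 9.86-fold lower than in GFP, taking the floor for the Notch intra arrays (adjusted p = 0.0012), the appendage gene Dll at -2.46 ± 0.27 and bab2 at -1.59 ± 0.27. The other Dll probe sets gave -0.94 and -2.94, both called. Of 13 margin, dorsoventral and head genes 7 fell, led by the dorsal Iroquois genes ara (-2.57 ± 0.06), caup (-1.49 ± 0.09) and mirr (-1.11 ± 0.07, and -1.28 ± 0.08 for its other probe set). Of 11 measured Notch targets, among them eyg, 9 rose, with E(spl)m2-BFM at 2.25 ± 0.17 and dpn at 2.03 ± 0.13 next to eyg. The bab2 call was lost without Notch intra replicate 2 (adjusted p = 0.0567), and that of ct (-0.66 ± 0.16) without any of the GFP and Notch intra arrays (up to 0.132).

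The summed level of a list is the log2 of its genes' added unlogged values, over all its genes with a probe set. Genes with high values weigh most in it, and genes that were not tested count too. For the 12 antennal genes it was 11.717 to 11.997 in Notch intra and 12.23 to 12.33 in GFP. With COX7a RNAi it was 11.948 to 12.785, overlapping with both. Markers of other tissues moved as well. Of 6 muscle genes 2 fell (summed level 10.68 to 10.70 against 11.83 to 12.12 in GFP), as did 2 of 4 tracheal genes (12.77 to 12.93 against 13.97 to 14.02) and the glial genes repo and moody of 7 neuron and glia genes (13.29 to 13.34 against 13.37 to 13.41). In the last list Gli was not lower, at 12.667 and 12.607 against 12.572 and 12.565 in GFP. The values of nrv2 were 11.387 and 11.358 against 11.500 and 11.437, and it was not called. The tracheal gene btl, near the floor, was not called either, at 4.644 and 4.837 against 4.832 and 4.59 in GFP. Of 4 endocrine gland genes Akh rose, at 9.86 and 8.94 against 5.79 and 5.52 in GFP, and the list's summed level was 10.18 to 11.40 against 7.901 to 10.001. The GFP arrays differed in the ecdysteroid synthesis gene spok of that list, at 3.83 and 9.35. None of 4 hemocyte genes was called by limma, with 3 of 4 at an unadjusted p under 0.05. Of these, Hml (0.87 ± 0.28) and Pxn (0.62 ± 0.22) were on the higher side. The gene crq was on the lower side, at 9.42 and 9.31 against 9.50 and 9.54 in GFP. The summed hemocyte level, 9.65 to 9.88, overlapped with GFP, at 9.74 to 9.80. That sum is over 6 genes, and crq had the highest values among the 4 tested ones. None of 3 fat body genes was called by limma, with 0 of 3 at an unadjusted p under 0.05. In pooled discs, fewer cells of a type and less RNA per cell cannot be told apart, and the part of these shifts in the changes of ey, toy, tsh and Optix was not tested.

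**Figure D3:**
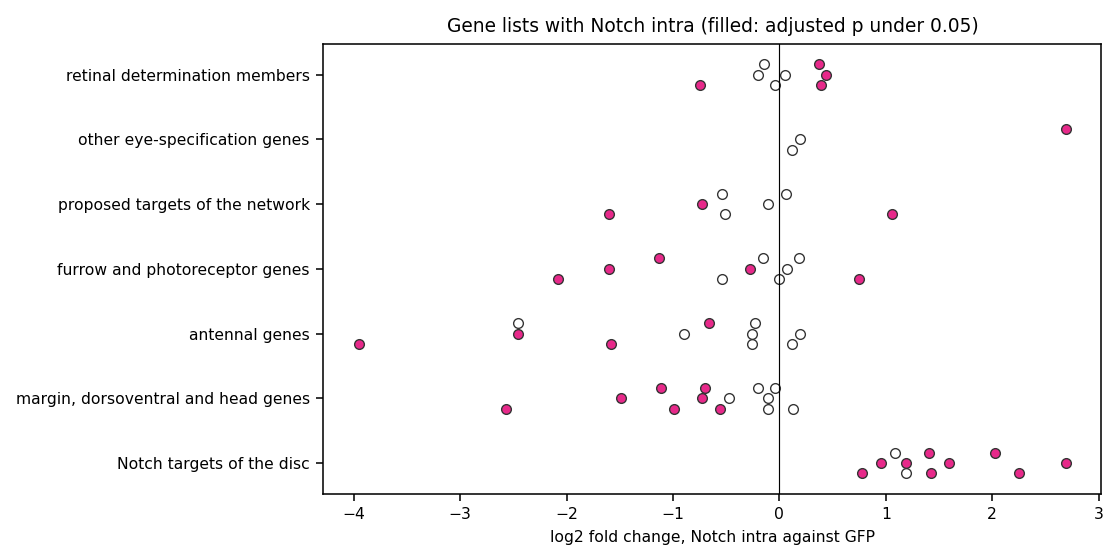
Log2 fold change of Notch intra against GFP for each measured gene of 7 lists, with filled points where the adjusted p was under 0.05. The retinal determination genes lie between -0.75 and 0.44, and the Notch targets all lie above 0.

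Delta against GFP asks what the overexpressed ligand does. Optix fell by 0.36 ± 0.07 (1.28-fold lower; adjusted p = 0.0306), 1 of 8 genes called where 2.38% of all genes were, 1.03% on the lower side. The next largest differences were those of so (-0.20 ± 0.05, adjusted p = 0.079) and toy (-0.16 ± 0.05, adjusted p = 0.147), and ey, eya, tsh and tio lay between -0.10 and -0.05, with dac at 0.11 ± 0.07. The median was -0.08 against 0.02 over all genes. The Optix call was lost without either GFP, either Delta or either Notch intra array (adjusted p up to 0.187), its value then lying between -0.40 and -0.32. The Delta replicates differed in muscle markers, with a summed level of 12.91 in replicate 1 and 11.68 in replicate 2, and the part of this in the values was not tested beyond leaving out each array.

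In the same comparison emc, a repressor of neural bHLH factors, was the one furrow and photoreceptor gene of 10 called, at 0.29 ± 0.05. The Pax gene eyg rose by 0.95 ± 0.08, and 4 of 11 Notch targets rose, including E(spl)m2-BFM at 1.00 ± 0.17 and dpn at 0.84 ± 0.13. The Iroquois genes ara (-0.47 ± 0.06) and mirr (-0.42 ± 0.07) fell, and the other mirr probe set gave -0.84 ± 0.08 (adjusted p = 0.00114). No gene of the antennal list was called by limma, and 0 of 11 had an unadjusted p under 0.05. No gene of the list of proposed targets was called either, with 2 of 7 under an unadjusted 0.05. Calls were lost without single arrays for E(spl)m2-BFM (either GFP, Delta or Notch intra array, adjusted p up to 0.163), dpn and ara (GFP replicate 2 or either Delta array, up to 0.0948 and 0.0797), the main mirr probe set (either GFP or Delta array, up to 0.144) and emc (Delta replicate 2 or either GFP array, up to 0.158).

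Notch intra against Delta compares both routes into the pathway. Higher with Notch intra were toy by 0.56 ± 0.05 (adjusted p = 0.000256), tsh by 0.54 ± 0.06 (adjusted p = 0.000821), ey by 0.42 ± 0.06 (adjusted p = 0.00486) and so by 0.25 ± 0.05 (adjusted p = 0.0116). Optix was lower by 0.39 ± 0.07 (adjusted p = 0.00972). That is 5 of 8 genes, where 9.55% of all genes were called (3.25% higher and 6.3% lower), and the median was 0.09 against 0.00 over all genes tested. Optix was therefore called lower than GFP in both genotypes and lower in Notch intra than in Delta. For ey, toy and tsh, which were called against GFP with Notch intra and not with Delta, the difference between both genotypes itself passed the test. The difference in so was lost without Delta replicate 1 or Notch intra replicate 1 (adjusted p up to 0.0999), and that in Optix without Delta replicate 1 or either Notch intra array (up to 0.0829). The toy probe set 1623314_at did not pass here (0.22 ± 0.08, adjusted p = 0.127), and 1633094_a_at did (0.47 ± 0.10, adjusted p = 0.0272).

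Markers of other tissues also differed between Notch intra and Delta. Of 11 antennal genes 4 were lower with Notch intra, led by ss (under the floor with Notch intra, at least 8.94-fold lower), Dll (-2.06 ± 0.27) and bab2 (-1.66 ± 0.27), as were 2 of 6 muscle genes (Act87E at -1.66 ± 0.25 and Mp20 at -1.64 ± 0.24), 2 of 4 tracheal genes (Gasp at -1.17 ± 0.06 and serp at -1.10 ± 0.10), 2 of 7 neuron and glia genes (repo at -1.83 ± 0.23 and moody at -1.02 ± 0.18) and the hemocyte gene crq (-0.23 ± 0.06). In the hemocyte list crq was the one gene on the lower side, with 3 of 4 values above 0 and a median of 0.30. The endocrine gene Akh was higher by 3.77 ± 0.30. The calls of bab2 and moody were lost without Delta replicate 1 or Notch intra replicate 2 (adjusted p up to 0.0646 and 0.082), and that of crq without any GFP, Delta or Notch intra array (up to 0.214). The part of these shifts in the differences of the network genes was not tested.

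COX7a RNAi against GFP asks what loss of this subunit of cytochrome c oxidase does alone. No gene of the network was called by limma, where 4.53% of all genes were, and 2 of 8, so and toy, had an unadjusted p under 0.05. That share counts adjusted calls, and the share of all genes at the unadjusted threshold was not computed. The values were -0.16 ± 0.05 for so (95% interval -0.26 to -0.05; adjusted p = 0.117) and -0.12 ± 0.05 for toy (-0.23 to -0.01; adjusted p = 0.251). For the other 6 genes they ran from -0.21 (tio, interval -0.47 to 0.06) to 0.10 (dac, -0.06 to 0.26), with ey at -0.02 (-0.16 to 0.13), eya at 0.02 (-0.13 to 0.17), tsh at 0.10 (-0.04 to 0.23) and Optix at -0.01 (-0.17 to 0.14). The median was -0.01 against 0.00 over all genes. Of the proposed targets 1 of 7 was called, shf at 0.55 ± 0.11, and of the margin and head genes 2 of 13 fell, the head gap gene ems (-0.38 ± 0.09) and sob (-0.31 ± 0.07). A second probe set of mirr was also lower (-0.60 ± 0.08, adjusted p = 0.00504), whereas the one that stands for the gene gave -0.20 ± 0.07 and did not pass. Of the furrow and photoreceptor genes aos was called, at 0.57 ± 0.12. Each of these calls was lost on leaving out single arrays: for shf any but the combined genotype's pair and COX7a RNAi replicate 1 (adjusted p up to 0.183), for ems any but COX7a RNAi replicate 2 (up to 0.229), and for sob and aos any but the combined genotype's pair (up to 0.277 and 0.187). The tracheal genes Gasp (-0.31 ± 0.06) and serp (-0.44 ± 0.10) fell and the endocrine gene Akh rose by 2.68 ± 0.30, and their part in the values above was not tested. Of the same tracheal list btl, near the floor, was not called, at 4.537 and 5.005 against 4.832 and 4.59 in GFP. The Gasp call was lost without COX7a RNAi replicate 2 or GFP replicate 1 (up to 0.149) and that of serp without either array of both genotypes compared (up to 0.209).

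Some stocks of the hairpin collection that holds line v106661 are known to carry an insertion that misexpresses tio. Here tio was not higher than GFP in either genotype with the hairpin, at -0.21 ± 0.12 with COX7a RNAi and -0.51 ± 0.12 with Delta and COX7a RNAi. These values rest on 1 probe set, whose level was the nearest to the floor in the network. Whether the stock used here carries the insertion was not tested. The nearest measured genes on either side of tio, CG2528 and CG6675, stood at 0.11 and 0.00 with COX7a RNAi and at -0.24 and -0.01 with both transgenes, none of them called (adjusted p of 0.175 or more).

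With Delta and COX7a RNAi together, 4 of 8 genes fell against GFP, where 2.95% of all genes were called lower and 7.56% in all. The 4 were Optix (-0.51 ± 0.07, 1.42-fold lower, adjusted p = 0.00351), so (-0.34 ± 0.05, 1.27-fold lower, adjusted p = 0.00367), tio (-0.51 ± 0.12, 1.43-fold lower, adjusted p = 0.0359) and toy (-0.20 ± 0.05, 1.15-fold lower, adjusted p = 0.0398). The values of ey (-0.21 ± 0.06, adjusted p = 0.0904) and tsh (-0.19 ± 0.06, adjusted p = 0.0824) did not pass, and those of eya (-0.06 ± 0.07) and dac (0.06 ± 0.07) were smaller. The median was -0.20 against 0.01 over all genes. The tio call was lost with only the compared groups fitted (limma adjusted p = 0.0841) and with a second quantile normalization (0.05, no longer under the threshold). The calls of so and Optix were kept whichever array was left out, and ey was called without COX7a RNAi replicate 1 or 2 (adjusted p = 0.0494 and 0.0492). That of toy was lost without either GFP, either Delta or either Delta with COX7a RNAi array (adjusted p up to 0.201) and with the mean of its probe sets (-0.11, adjusted p = 0.329), as well as with the arrays centred on their median (adjusted p = 0.076) and without the trend (0.0931), and that of tio without either GFP, either Delta or Delta with COX7a RNAi replicate 2 (up to 0.219).

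In these discs eyg rose by 0.98 ± 0.08 and dpn by 0.86 ± 0.13, and 5 of 11 Notch targets rose in all. The list of proposed targets had shf higher by 0.46 ± 0.11, and emc rose by 0.26 ± 0.05. Of the margin and head genes drm rose by 0.53 ± 0.13, and mirr (-0.42 ± 0.07, and -0.68 ± 0.08 for its other probe set) and ara (-0.39 ± 0.06) fell. No antennal gene was called by limma, with 1 of 11 at an unadjusted p under 0.05. The tracheal list had 3 of 4 genes lower (Gasp, serp and verm, summed level 13.59 to 13.73 against 13.97 to 14.02 in GFP), and nrv2 of the neuron and glia list fell by 0.26 ± 0.06, and the part of these shifts in the network's changes was not tested. The call of shf was lost without either GFP, Delta or Notch intra array or Delta with COX7a RNAi replicate 2 (adjusted p up to 0.202). Without GFP replicate 1 or 2 or replicate 2 of the combined genotype, the calls of emc (up to 0.109), E(spl)m2-BFM (0.84 ± 0.17, up to 0.176), Gasp (up to 0.149), serp (up to 0.194), verm (up to 0.205), nrv2 (up to 0.182), drm (up to 0.218) and upd1 (0.44 ± 0.10, up to 0.168) were lost. Those of drm, upd1, verm, nrv2 and serp were lost without further arrays as well, that of the main mirr probe set without either GFP array (up to 0.0716) and that of ara without GFP replicate 2 (0.0984).

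**Figure D4:**
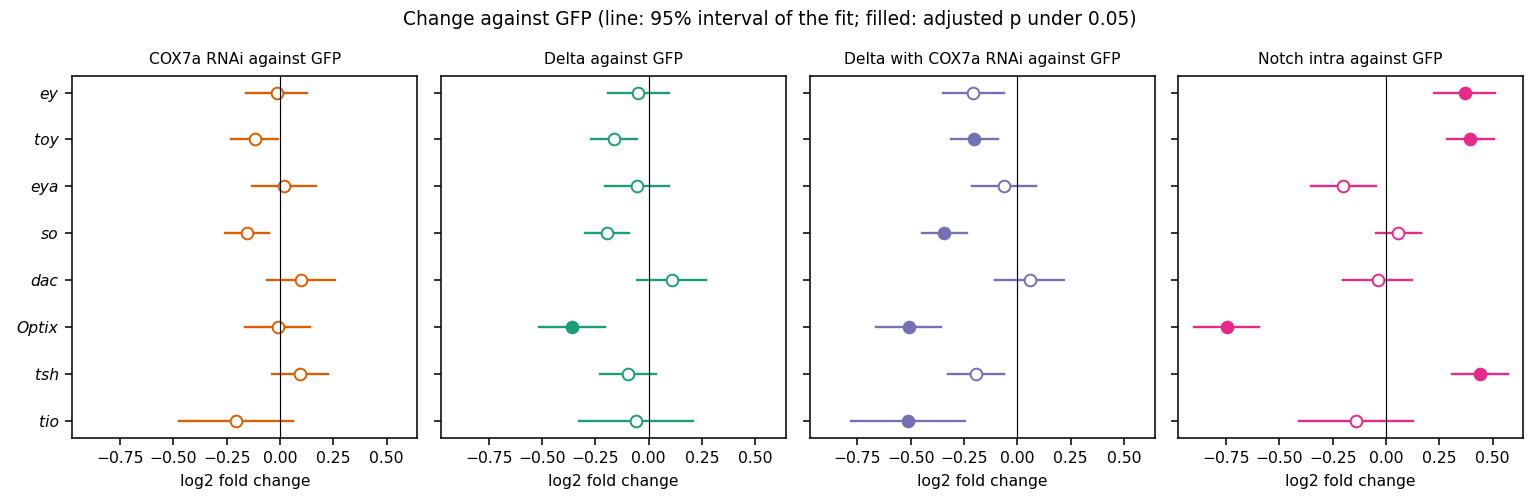
Log2 fold change against GFP of the 8 retinal determination genes in each of the other 4 genotypes, with the 95% interval of the fit and filled points where the adjusted p was under 0.05. All 4 comparisons share the GFP arrays, and the filled points number 0, 1, 4 and 4 from left to right.

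The hairpin was next compared within Delta discs. Against Delta alone, all 8 genes had negative values with Delta and COX7a RNAi, from -0.45 ± 0.12 (tio, adjusted p = 0.0839) to -0.01 ± 0.07 (eya), and none was called by limma, where 3.75% of all genes were. An unadjusted p under 0.05 was found for 3 of 8, ey (-0.16 ± 0.06), so (-0.15 ± 0.05) and tio. The share of all genes at that unadjusted threshold was not computed, so this count has no background beside it. The median was -0.12 against -0.01 over all genes. The hemocyte gene crq (-0.31 ± 0.06) and the glial gene nrv2 (-0.30 ± 0.06) were lower, calls that were lost without any GFP or Delta array or replicate 2 of the combined genotype (adjusted p up to 0.163 and 0.154), that of nrv2 also without either Notch intra array.

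Delta was also compared within hairpin discs, on arrays that the comparison of Delta with GFP does not use. Against COX7a RNAi alone, Optix fell by 0.50 ± 0.07 with Delta and COX7a RNAi (adjusted p = 0.0153), 1 of 8 genes called where 0.896% of all genes were (0.506% lower), and the values of tsh (-0.29 ± 0.06, adjusted p = 0.0736), so (-0.19 ± 0.05, adjusted p = 0.135) and ey (-0.19 ± 0.06, adjusted p = 0.26) did not pass. All 8 genes had negative values, with a median of -0.19 against 0.01 over all genes, and 7 of 8 had them in Delta against GFP. The values of eya (-0.08 ± 0.07) and dac (-0.04 ± 0.07) changed sign when single arrays were left out. The Optix call was lost without COX7a RNAi replicate 1 or Delta with COX7a RNAi replicate 2 (adjusted p up to 0.0676). The endocrine gene Akh, at 8.66 and 8.02 with COX7a RNAi, stood at 5.46 and 5.56 in the combined genotype, a change of -2.83 ± 0.30 (adjusted p = 0.00449), and its part in the Optix value was not tested.

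The interaction asks whether both transgenes together differ from the sum of each alone. None of the 8 genes was called by limma, where 0.575% of all genes were, and 1 of 8, tsh (-0.19 ± 0.08, 95% interval -0.38 to -0.01, adjusted p = 0.453), had an unadjusted p under 0.05. How many of all genes passed that unadjusted threshold was not computed. For so the interaction was 0.01 ± 0.06 (-0.14 to 0.16), and for Optix -0.14 ± 0.09 (-0.36 to 0.08). Both intervals were wider than the effect of either transgene alone on the same gene. The median over the 8 genes was -0.14 against -0.01 over all genes.

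**Figure D5:**
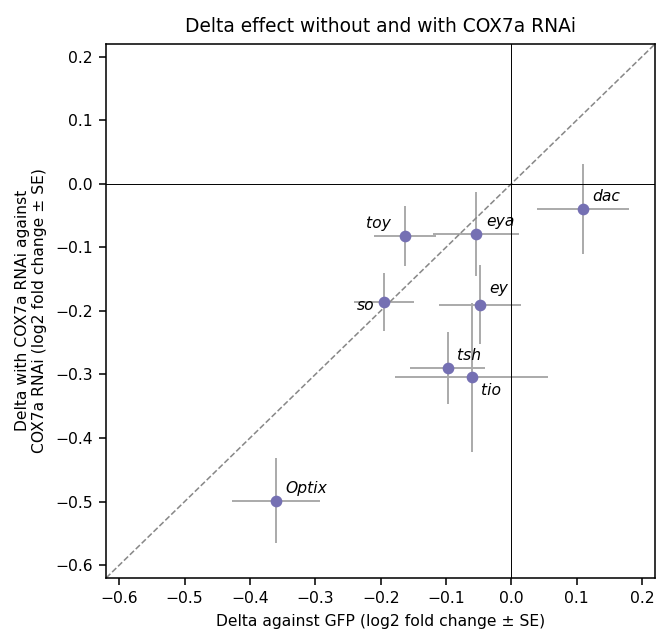
Log2 fold change ± SE of the 8 genes with Delta in discs without the hairpin (horizontal) and with it (vertical), from separate arrays, with the dashed line marking equal effects. Optix is lowest on both axes, at -0.36 and -0.50, and so lies near the line.

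Both effects were also averaged over the other transgene, a pair of comparisons added after the data had been seen. With Delta, over both COX7a states, the change was -0.43 ± 0.05 for Optix (adjusted p = 0.00263), -0.19 ± 0.03 for so (adjusted p = 0.0177) and -0.19 ± 0.04 for tsh (adjusted p = 0.0419), 3 of 8 genes called where 3.24% of all genes were (1.54% lower). With the hairpin, over both Delta states, it was -0.15 ± 0.03 for so (adjusted p = 0.0254) and -0.33 ± 0.08 for tio (adjusted p = 0.0482), 2 of 8 called where 8.03% were (3.34% lower). Leaving out an array ended the calls of so (adjusted p up to 0.0873 for Delta, without Delta replicate 1 or either GFP array, and up to 0.109 for the hairpin, without COX7a RNAi replicate 1, Delta with COX7a RNAi replicate 2 or either GFP or Delta array), of tsh (any array but replicate 1 of either hairpin genotype, up to 0.165) and of tio (any array but Delta with COX7a RNAi replicate 1, up to 0.162). The tsh call was also lost with the arrays centred on their median, without the trend, without a filter and with only the compared groups fitted (adjusted p up to 0.0787). Other tissues' markers moved in these averages too: with the hairpin Gasp (-0.19 ± 0.04), serp (-0.40 ± 0.07), verm (-0.42 ± 0.08), nrv2 (-0.20 ± 0.04) and crq (-0.18 ± 0.04) were called lower and Akh higher (1.28 ± 0.21), and with Delta Akh was called lower (-1.42 ± 0.21). The hairpin calls of Gasp, verm, nrv2 and crq were lost without Delta replicate 1 or GFP replicate 1 and without some other arrays as well (adjusted p up to 0.131). Their part in the changes of so, tio, tsh and Optix was not tested.

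By mean level, ey and the main toy probe set ran from Delta with COX7a RNAi through Delta, COX7a RNAi and GFP to Notch intra, and in both the step from GFP to Notch intra was the only one between neighbours that passed the test. Neighbours were set by the means of these same arrays, so the values chose which pairs count as steps. The comparisons of COX7a RNAi with Delta and with Notch intra, and of Notch intra with the combination, were not among the planned ones. The other toy probe sets ordered the genotypes differently. In 1623314_at GFP was lowest (7.70), and Delta with COX7a RNAi (7.82) was second to Notch intra (7.99). In 1633094_a_at COX7a RNAi (9.87) lay below Delta (9.93). For so the 5 genotypes ran in the order found for ey, and no step between neighbours passed. For tsh the order was Delta with COX7a RNAi, Delta, GFP, COX7a RNAi and Notch intra, with the last step called (0.34 ± 0.06, adjusted p = 0.00423), in a comparison that called 20.3% of all genes. Optix ran from Notch intra through Delta with COX7a RNAi, Delta and COX7a RNAi to GFP, and the steps from Notch intra to the combination (0.24 ± 0.07, adjusted p = 0.0471) and from Delta to COX7a RNAi (0.35 ± 0.07, adjusted p = 0.0226) passed, in comparisons that called 15.8% and 5.06% of all genes. The call of the former was lost without any array but the COX7a RNAi pair and replicate 2 of the combined genotype (adjusted p up to 0.204), and that of the latter without either Delta array, COX7a RNAi replicate 1 or GFP replicate 2 (up to 0.143). No neighbouring genotypes differed beyond the test for eya, dac or tio.

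Across the 10 arrays, the genes outside the network whose values followed a member most closely were sought among 1608 genes with an SD of at least 0.2 log2 units. The values are a description over arrays that share genotypes. The closest to toy were dpr16 and CG43366 (Pearson's r of 0.98 each), to Optix CG13056 (0.97) and CG4998 (0.96), and to ey the pigmentation gene t and CG13894 (0.94 each). For tio they were NFAT (0.93) and PGAP1 (0.88), for dac Appl and the TGF-beta ligand gene mav (0.92 each), and for tsh SkpB and the cuticle protein gene Cpr65Aw (0.92 each). Those of eya were CG4872 (0.92) and the adhesion gene kirre (0.91), and those of so CG15822 and the larval cuticle gene Lcp65Af (0.90 each). Within the network, toy, tsh and ey followed each other at r of 0.90 to 0.93 and Optix followed none of them in the same direction (-0.51 to -0.35).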

How the data were processed

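RNA of 10 disc samples (50 ng each) was amplified with a 3′ in vitro transcription kit, per the labels' protocols. The authors deposited log2 values, 1 per probe set and array. The submitters' processing notes name RMA, Transcriptome Analysis Console 3.0.0.466 and Affymetrix Expression Console, without their roles. RMA makes the arrays' distributions alike, so a shift shared by most genes would be removed. Scan dates, detection calls and a genome build are not given in the sources used here, so no batch was tested and no coordinates or sequences are printed.

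The 183 control probe sets were left out. Of the rest, 13647 carry 1 gene symbol, 402 several and 4720 none in the platform annotation, which can be old. The probe set with the highest mean stood for each of 11982 genes, and genes with at least 2 arrays over 4.66, the 40th percentile of the values of probe sets that are not controls, were tested, which left 8702. A linear model with a mean for each of 5 genotypes was fitted to all 10 arrays together (limma 3.58.1, R 4.3.3), leaving 5 residual degrees of freedom, with eBayes and an intensity trend, two-sided, and p-values were adjusted over all genes tested. Tested on data simulated for Notch intra against GFP, it called 1 of 50 genes changed 1.1-fold and 19 of 50 changed 1.25-fold. At 1.5-fold it called 40 of 50 and at 2-fold 48 of 50, along with 3 of 8502 unchanged genes. The number of arrays limits the precision.

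Lists are described by counts. Shares over all genes are those of adjusted calls, and the share at an unadjusted p under 0.05 was not computed. dan and danr stand in 2 lists, as do eyg, dpp, elav, hh, ro and sens, and stand in the counts of both. From each list, no more than 3 called genes per comparison are described, those that changed most. Others are named where the loss of their call moved a count or after their values were seen (spok, Hml, Pxn, Gli and btl, and crq and nrv2 with Notch intra against GFP). The fat body and hemocyte lists had no call against GFP. Members, lists and alternatives were chosen with earlier results of these data known. The main fit did not pair arrays by replicate number. Deviations of same-numbered arrays correlated above 0.1 in 2 of 10 genotype pairs (Pearson's r from -0.22 to 0.38, median 0.03). Same-numbered arrays of some genotypes thus shared part of their deviations. Alternatives were the filter, the eBayes form, scaling, the replicate block, the samples fitted, the probe set rule and each array left out.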

Additional observations from a re-analysis of the deposited data

Results flagged for a closer look

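The endocrine marker Akh, the adipokinetic hormone gene, was the one gene of the lists and the network whose Delta and hairpin effects departed from additivity in the test of the difference itself (interaction -2.81 ± 0.42, SE; limma adjusted p = 0.0311). It read 5.79 and 5.52 in GFP, 8.66 and 8.02 with COX7a RNAi, 5.77 and 5.50 with Delta, 5.46 and 5.56 with Delta and COX7a RNAi, and 9.86 and 8.94 with Notch intra. The call was lost without eBayes's trend or with robust eBayes (adjusted p up to 0.0581) and without COX7a RNAi replicate 1 or any array of GFP, Delta or the combined genotype (up to 0.137). The cause was not tested.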

How the results depend on the processing

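Of the 15 calls of network genes in the 8 planned comparisons, 8 were kept in every setting tried and with every array left out, and 11 were kept in every setting other than leaving out an array. The number of network genes called against GFP was 0 instead of 1 for Delta when eBayes was run without a trend, and 2 instead of 4 for Delta with COX7a RNAi when only the compared groups were fitted. For Delta with COX7a RNAi against COX7a RNAi it was 0 instead of 1 with only the compared groups and 2 with a second quantile normalization. For the hairpin averaged over both Delta states it was 1 instead of 2 with the arrays centred on their median, without the trend, with no filter, with the filter at the 60th percentile, with only the groups compared and with a second quantile normalization. At the 60th percentile the lost gene, tio, was no longer tested. For the other settings the cause was not tested. With an array left out the counts ran from 0 to 1 for Delta against GFP and for Delta with COX7a RNAi against COX7a RNAi, from 2 to 5 for Delta with COX7a RNAi against GFP, from 3 to 5 for Notch intra against Delta and against GFP, from 1 to 3 for the averaged Delta effect and from 0 to 2 for the averaged hairpin effect. With the replicate block 3 instead of 4 genes were called for Delta with COX7a RNAi against GFP (toy was lost) and 2 instead of 3 for the averaged Delta effect (tsh was lost), with the same number in all other comparisons. Additional calls were those of eya for Notch intra against GFP with only the compared groups (adjusted p = 0.0393), and of tsh with a second quantile normalization for Delta with COX7a RNAi against GFP (0.0466) and against COX7a RNAi (0.0487).

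In Delta with COX7a RNAi against GFP, toy was also lost with the arrays centred (0.076) and without the trend (0.0931), and tio with only the compared groups (0.0841) and with a second quantile normalization (0.05). For the averaged Delta effect tsh was also lost with the arrays centred (0.0536), without the trend (0.0787), without a filter (0.0516) and with only the compared groups (0.0568). Of the called steps between neighbouring genotypes, that of tsh kept its call throughout, that of Optix from Delta to COX7a RNAi lost it with only the compared groups (0.0905), and that from Notch intra to Delta with COX7a RNAi in 4 of 10 settings (up to 0.0898).

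No called value of a network gene in the comparisons above changed its sign. Uncalled values that did were the interaction for toy (-0.00902 with the mean of its probe sets) and, with an array left out, those of ey (-0.0943 to 0.0613), eya (-0.0671 to 0.102), dac (-0.0151 to 0.211) and Optix (-0.0877 to 0.0645) for COX7a RNAi against GFP, tio (-0.185 to 0.0226) for Notch intra against Delta, eya (-0.0521 to 0.0362) for Delta with COX7a RNAi against Delta, eya (-0.164 to 0.00515) and dac (-0.153 to 0.0734) for the same discs against COX7a RNAi, eya (-0.11 to 0.0591) and so (-0.0236 to 0.0414) for the interaction, dac (-0.022 to 0.0912) for the averaged Delta effect, and eya (-0.0375 to 0.0472), dac (-0.0329 to 0.0803) and tsh (-0.0299 to 0.0286) for the averaged hairpin effect. The 2 other scalings moved the median of all genes by at most 0.0403 log2 units.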
